A study of Mus musculus with 8 samples.

Results

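The 10 genes described here encode ligands of the tumor necrosis factor (TNF) superfamily: Tnf, Lta, Ltb, Tnfsf11, Tnfsf10, Tnfsf9, Tnfsf8, Tnfsf4, Tnfsf14 and Tnfsf12. They were chosen by name and are 10 of the 54532 genes in the count table. Of these 10, 9 were among the 15305 genes that passed a filter on low counts and were tested, and Tnfsf4 did not pass. RNA was sequenced from bone marrow B cells, which had been enriched with antibody-coated magnetic beads, in 3 libraries from ovariectomized mice (OVX) and 3 from sham-operated mice (Sham). Removal of the ovaries served as a surgical model of estrogen loss. The study's methods describe this surgery in female mice of 8 weeks of age. Neither the genotype and strain of the mice behind these RNA libraries nor the time from surgery to harvest is given in the sources used here, and the labels do not say whether each library came from a separate animal. Every p-value below therefore measures the spread between libraries, which may be partly technical. ChIP-seq of HIF-1α with its input, made from C57BL/6 B cells, belongs to the same series and was not analysed here.

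TNF superfamily ligands are made as membrane proteins that act in trimers, on the cell surface or after they have been cut off it, and bind receptors of the TNF receptor superfamily. Many of these receptors signal through TRAF adaptors to NF-kB, while some carry a death domain that can lead to apoptosis. In bone marrow, RANKL (encoded by Tnfsf11) drives the formation of osteoclasts through its receptor RANK, TNF adds to osteoclast formation, and the lymphotoxins encoded by Lta and Ltb organize lymphoid tissue. B lineage cells are a known source of lymphotoxin and can express several of the other ligands.

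None of the 10 genes passed the test for a difference between OVX and Sham. With edgeR's quasi-likelihood test and Benjamini-Hochberg adjustment over all 15305 genes, 0 genes were called at an adjusted p-value under 0.05 (0% of those tested), and the lowest adjusted p-value of any gene was 0.811. DESeq2 and limma-voom called 0 genes as well. At an unadjusted p-value under 0.05, edgeR gave 574 of the 15305 genes, of which 349 were lower in OVX (2.28% of those tested) and 225 were higher (1.47%). At the same threshold limma-voom gave 594 of the 15305 genes. DESeq2 was run without the filter on low counts and gave 755 of 27412 genes, so its count is not comparable. Among the ligands, Tnf was the 1 gene of the 9 tested with an unadjusted p-value under 0.05. The estimate was below 0 for 8 of the 9 tested ligands and above 0 for Tnfsf9, beside 51.8% of all genes tested below 0. For OVX against Sham, the median log2 fold change was -0.48 over the 9 ligands and -0.0081 over all genes tested. That median was -0.15 without Sham replicate 2 and -0.19 with the mature B marker share of each library as a covariate, an adjustment chosen after the data were seen. The 95% interval of the log2 fold change included 0 for 8 of the 9 genes.

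Total counts were between 23838775 and 33136701 reads per library. Levels are given in CPM, counts scaled to library totals after TMM normalization, and since gene lengths were not at hand, no level is compared between genes. Values of single libraries are listed in the order of replicates 1, 2 and 3. The B cell label held in all 6 libraries. Cd79a, a part of the B cell receptor, had between 38042 and 58684 reads, and 12 B cell genes together took between 0.965% and 1.10% of the reads. Transcripts of other cells were present too. The share of 18 neutrophil genes was 0.257%, 0.354% and 0.962% in the Sham libraries and 0.416%, 0.112% and 0.121% in the OVX libraries, and that of 16 monocyte and macrophage genes was 0.0851%, 0.186% and 0.0811% in Sham and 0.0568%, 0.0523% and 0.142% in OVX. T and NK cell genes (12), plasmacytoid dendritic cell genes (6) and stroma genes (12) each took less than 0.01% of the reads in every library. Each gene found for the cell type lists had reads in some library. In bulk RNA, fewer cells of a type and less RNA per cell cannot be told apart.

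Tnf, Lta and Ltb are neighbours on mouse chromosome 17. In RefSeq coordinates (GRCm38.p6, the assembly known as mm10), Ltb lies at chr17:35194507-35196305 on the plus strand, Tnf at chr17:35199367-35202007 on the minus strand and Lta at chr17:35203165-35205578 on the minus strand, with 3061 bases between Ltb and Tnf and 1157 between Tnf and Lta. Lta and Ltb each overlap a microRNA gene (Mir6974 and Mir6973a). Tnfsf11 lies on chromosome 14 (chr14:78277446-78308043, minus strand). Tnfsf9 (chr17:57105287-57107758), which overlaps Gm11110, and Tnfsf14 (chr17:57189474-57194181) are 81715 bases apart, and Tnfsf10, Tnfsf8, Tnfsf4 and Tnfsf12 lie on chromosomes 3, 4, 1 and 11. Of the 10 genes, 7 had a promoter sequence in the RefSeq table. The 250 bases before the start are shown for Tnf, which had the lowest p-value of the ligands, for its neighbour Ltb, and for Tnfsf11, the osteoclast factor that the study examined as a target of HIF-1α. Each is written 5′ to 3′ on the strand of the gene, for the windows chr17:35202008-35202257, chr17:35194257-35194506 and chr14:78308044-78308293. Capitals mark matches, on either strand, to GGGNNNNNCC, letters found in many sites bound by NF-kB.
Tnf: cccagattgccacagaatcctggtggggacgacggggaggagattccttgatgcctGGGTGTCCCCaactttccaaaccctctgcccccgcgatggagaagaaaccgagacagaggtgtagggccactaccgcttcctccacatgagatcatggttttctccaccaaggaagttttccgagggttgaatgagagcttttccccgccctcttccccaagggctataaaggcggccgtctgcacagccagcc
Ltb: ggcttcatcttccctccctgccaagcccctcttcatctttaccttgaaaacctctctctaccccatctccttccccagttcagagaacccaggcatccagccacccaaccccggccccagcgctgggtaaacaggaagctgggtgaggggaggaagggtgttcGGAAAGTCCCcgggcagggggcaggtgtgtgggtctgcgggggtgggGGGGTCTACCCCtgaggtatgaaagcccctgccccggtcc
Tnfsf11: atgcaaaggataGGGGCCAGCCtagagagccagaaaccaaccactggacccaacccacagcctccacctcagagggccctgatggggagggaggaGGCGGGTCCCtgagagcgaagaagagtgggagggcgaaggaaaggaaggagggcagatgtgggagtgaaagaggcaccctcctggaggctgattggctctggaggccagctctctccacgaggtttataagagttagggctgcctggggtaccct
The window of Tnf held 1 match, which began 194 bases before the start. That of Ltb held 4, of which 3 overlapped, and that of Tnfsf11 held 2, at 238 and 155 bases. These letters were common, being present in 45.8% of the 32851 promoter windows of this length in the table. The core letters of a hypoxia response element, ACGTG or GCGTG, were searched on both strands as well. Either was present in 38.6% of all windows and neither in the 3 windows shown, which says only that these letters are not in these 250 bases. For the Tnfsf11 promoter the study reported a putative element that HIF-1α bound under hypoxia and that raised reporter activity in a B cell line. Among the other ligands with a sequence, Tnfsf8 held 1 GCGTG and Tnfsf14 held 1 ACGTG, 74 and 63 bases before the starts used. The Tnfsf8 window (chr4:63861285-63861534, minus strand) overlaps the gene itself, which reaches chr4:63861508. Its start and its match therefore lie inside the annotated gene.

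Tnf (ENSMUSG00000024401) encodes TNF itself, an inflammatory cytokine. The Sham libraries had 56, 196 and 190 of its reads, and the OVX libraries had 53, 66 and 74. Scaled to the libraries, these were 2.36, 6.90 and 7.64 CPM in Sham and 2.16, 2.33 and 2.24 CPM in OVX. Every OVX library lay below every Sham library, which held for 630 of the 15305 genes tested (4.12%), but Sham replicate 1 was close to the OVX libraries and the distance between the groups rested on Sham replicates 2 and 3. The level was 5.64 ± 2.86 CPM in Sham against 2.24 ± 0.0854 in OVX (mean ± SD of 3 libraries), a log2 fold change of -1.33 (standard error 0.42, 95% interval -2.31 to -0.35) with an unadjusted p of 0.0147 and an adjusted p of 0.811 in edgeR's quasi-likelihood test. Permuting the libraries exactly (two-sided exact permutation test of log2 levels) gave p = 0.1, the smallest that 3 libraries against 3 allow. Without Sham replicate 3 the estimate was -1.06, and without Sham replicate 1 it was -1.70. In the latter fit the adjusted p was 0.273 by edgeR, while 2698 genes had an unadjusted p under 0.05. With the neutrophil marker share as a covariate the log2 fold change was -0.90 (unadjusted p = 0.157 in edgeR's quasi-likelihood test). The same test gave -1.24 with the monocyte and macrophage share (unadjusted p = 0.0408). With the mature B share, the adjustment added after seeing the data, it gave -1.16 (unadjusted p = 0.0311).

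T and NK cell genes and plasmacytoid dendritic cell genes also took their largest shares in Sham replicates 3 and 2. The 12 T and NK cell genes summed to between 0.00242% and 0.00524% of the reads in Sham and between 0.00166% and 0.00406% in OVX, and 11 of the 12 had reads in every library. Estimates were below 0 for 11 of them, 3 with an unadjusted p-value under 0.05 in edgeR's quasi-likelihood test. The 6 plasmacytoid dendritic cell genes summed to between 0.00157% and 0.00395% in Sham and between 0.00123% and 0.00214% in OVX, with 5 of the 6 read in every library. All 5 that were tested had estimates below 0, but Cox6a2, at -0.059, differed from the sum. It had 189, 171 and 136 reads in Sham and 109, 177 and 263 in OVX. Cd3e, a part of the T cell receptor complex, had 8, 33 and 32 reads in the Sham libraries and 19, 3 and 3 in OVX. Cd4, which had the most reads of the T and NK cell list, had 316, 641 and 549 in Sham and 272, 275 and 1081 in OVX. Klrb1c and Cd247 of that list were highest in Sham replicate 1. Plasma cell genes (7), of the B lineage, took 0.106%, 0.144% and 0.138% of the reads in Sham and 0.119%, 0.109% and 0.0943% in OVX, and erythroid genes (7) took 0.0104%, 0.0240% and 0.0174% in Sham and 0.0134%, 0.00649% and 0.0136% in OVX, both again with their largest shares in Sham replicates 2 and 3. Within the erythroid list all 7 estimates were below 0, but Hbb-bt and Hba-a1 were highest in Sham replicate 2 and then in OVX replicate 3. Klf1 was highest in Sham replicate 3 and then in OVX replicate 1. Within the plasma cell list, single genes differed from the sum, with 4 estimates below 0 and 3 above. Prdm1, a regulator of plasma cells, had 3.42, 9.48 and 6.60 CPM in Sham and 3.50, 3.85 and 2.88 CPM in OVX. Jchain had 2647, 18185 and 12822 reads in Sham and 6305, 2989 and 2354 in OVX. The 3 genes with estimates above 0 were Sdc1, Irf4 and Mzb1. Sdc1 and Irf4 were lowest in Sham replicate 2, and Mzb1 was highest in Sham replicate 1. The part of any of these cells in the Tnf counts was not tested.

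Ltb (ENSMUSG00000024399) encodes lymphotoxin-β, the membrane anchor of the lymphotoxin heterotrimer. Its reads numbered 3137, 7867 and 4415 in the Sham libraries and 4099, 4119 and 5093 in OVX. In CPM these were 132, 277 and 178 in Sham and 167, 145 and 154 in OVX. The OVX libraries lay inside the range of the Sham libraries, in which replicate 2 was the highest and replicate 1 the lowest of all 6. The level was 196 ± 74.0 CPM in Sham against 155 ± 10.8 in OVX (mean ± SD of 3 libraries), a log2 fold change of -0.33 (standard error 0.24, 95% interval -0.90 to 0.24, adjusted p = 0.811 in edgeR's quasi-likelihood test). This value became 0.0017 when Sham replicate 2 was left out.

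Lta (ENSMUSG00000024402) encodes lymphotoxin-α, which is secreted as a homotrimer or held at the surface by lymphotoxin-β. It was read 61, 231 and 121 times in the Sham libraries and 123, 81 and 110 times in OVX, or 2.57, 8.14 and 4.87 CPM in Sham and 5.01, 2.86 and 3.33 CPM in OVX. The groups overlapped, and the highest and the lowest of the 6 libraries were both Sham (replicates 2 and 1), as for Ltb. OVX differed from Sham by a log2 fold change of -0.48 (standard error 0.42, 95% interval -1.48 to 0.51, adjusted p = 0.814 in edgeR's quasi-likelihood test), and -0.0016 without Sham replicate 2. A list of 10 mature B cell genes had its largest share in that library too, at 0.617% of the reads beside 0.260% and 0.300% in the other Sham libraries and between 0.278% and 0.341% in OVX. That was not particular to this list, since the plasma cell, monocyte and macrophage, and erythroid lists were also largest in Sham replicate 2. Reads of 12 pro-B and pre-B genes were lowest there, at 0.206% beside a range from 0.255% to 0.393% in the other 5 libraries. With the mature B share as a covariate (the adjustment added after seeing the data), the log2 fold change was -0.09 for Ltb (standard error 0.080) and -0.11 for Lta (standard error 0.27). The other covariates moved these values in the same direction, to -0.12 for Ltb and -0.21 for Lta with the monocyte and macrophage share and to -0.26 and -0.15 with the neutrophil share.

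Because Tnf and Ltb were counted in the same libraries, their ratio carries no scaling. Tnf had 17.9, 24.9 and 43.0 reads per 1000 Ltb reads in the Sham libraries and 12.9, 16.0 and 14.5 in OVX. All OVX libraries were below all Sham libraries, with 28.6 ± 12.99 in Sham against 14.5 ± 1.55 in OVX (mean ± SD of 3 libraries; two-sided exact permutation test, p = 0.1, again the smallest possible). Lta had 19.4, 29.4 and 27.4 reads per 1000 Ltb reads in Sham and 30.0, 19.7 and 21.6 in OVX, and these overlapped (exact permutation test, p = 1). Both ratios were chosen after the values of the genes were seen.

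**Figure D1:**
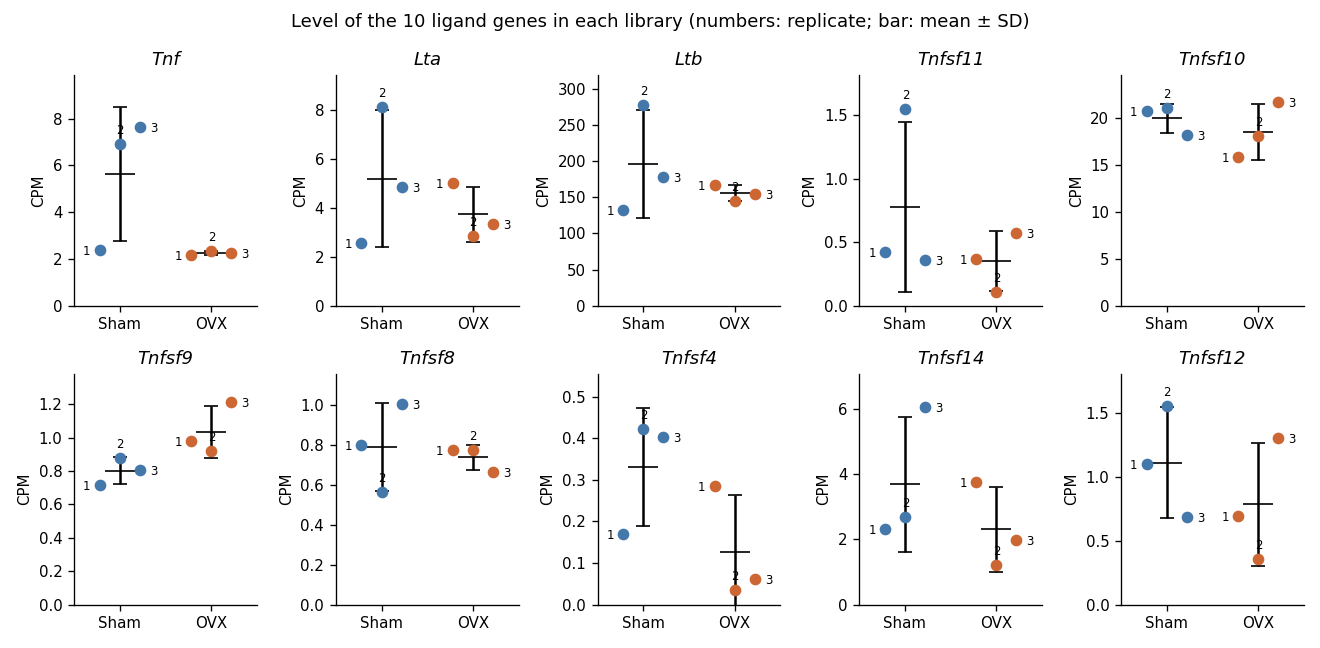
Level of each of the 10 ligand genes in CPM (vertical axis, starting at 0, with its own scale per gene) in the 3 Sham and 3 OVX libraries; points are libraries with their replicate number, bars the mean and SD. All Tnf values in OVX are between 2.16 and 2.33 CPM, below the Sham values of 2.36, 6.90 and 7.64, while of the other 9 genes all but Tnfsf9 overlap between the groups.

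Tnfsf11 (ENSMUSG00000022015) encodes RANKL, the ligand that osteoclast precursors need in order to mature. It is in a list of genes that the study chose on these samples, as upregulated after OVX and bound by HIF-1α. These counts are therefore no independent test of that choice. The estimate obtained here had the opposite sign, with a 95% interval that included 0. The study had other evidence too. By flow cytometry it reported more RANKL protein in marrow B cells after OVX, which RNA counts do not measure. In cultured B cells it reported a rise of RANKL under hypoxia that was lost without Hif1a. In the libraries used here, Tnfsf11 reads were few in both groups, from 9 to 44 in Sham and from 3 to 19 in OVX. In CPM the values were 0.422, 1.55 and 0.362 in the Sham libraries and 0.367, 0.106 and 0.575 in OVX. Apart from Sham replicate 2, which was the highest, and OVX replicate 2, which was the lowest, the libraries of both groups lay between 0.362 and 0.575 CPM. An estimated log2 fold change of -1.15 was accompanied by a 95% interval from -2.92 to 0.63 (unadjusted p = 0.172 in edgeR's quasi-likelihood test), and it was -0.15 without Sham replicate 2 and -1.74 without OVX replicate 3. An increase by 0.63 on the log2 scale and a decrease well beyond the estimate both lie within that interval. The variance within groups was 9.68 times the counting variance, so the spread between libraries, more than the depth, set the width of the interval.

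The genes of both RANKL receptors were part of the receptor list. Tnfrsf11a encodes RANK, the signalling receptor of osteoclast precursors, and was read 49, 156 and 23 times in the Sham libraries and 29, 6 and 106 times in OVX. It had its highest values in Sham replicate 2 and OVX replicate 3 and its lowest in OVX replicate 2, in the same order as Tnfsf11 at these 3 places. Its log2 fold change was -0.87 (95% interval -3.01 to 1.26) and 0.052 without Sham replicate 2. Tnfrsf11b encodes osteoprotegerin (OPG), the soluble decoy that binds RANKL. It had 0 reads in all 6 libraries, which allows up to 3 reads in a library, or between 0.0908 and 0.127 CPM (counting error only). The summed share of the 16 monocyte and macrophage genes was likewise highest in Sham replicate 2 and OVX replicate 3. C1qa, a complement gene of macrophages, had 2436, 6302 and 1606 reads in Sham and 1366, 1886 and 6176 in OVX. Single genes of this list differed from the sum. Ccr2, Ly6c2, F13a1 and Cx3cr1 were highest in Sham replicate 3, and Ccr2 had 259, 651 and 1395 reads in Sham and 520, 128 and 89 in OVX. Timd4 was highest in OVX replicate 3 and then in Sham replicate 1. With the monocyte and macrophage share as a covariate the log2 fold change of Tnfsf11 was -0.37 (standard error 0.56). It was -0.42 with the mature B share and -1.42 with the neutrophil share.

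Tnfsf9, Tnfsf8, Tnfsf4 and Tnfsf14 encode ligands that costimulate T cells and other lymphocytes. Tnfsf9 (4-1BB ligand) was the 1 ligand with an estimate above 0. Its level was 0.718, 0.881 and 0.805 CPM in the Sham libraries and 0.977, 0.918 and 1.21 CPM in OVX, from 17 to 40 reads per library. All OVX libraries were above all Sham libraries, as for 662 of the 15305 genes tested (4.33%), although OVX replicate 2 and Sham replicate 2 were only 1 read apart before scaling. Its log2 fold change was 0.37 (standard error 0.29, 95% interval -0.31 to 1.05; adjusted p = 0.811 in edgeR's quasi-likelihood test; exact permutation p = 0.1). The variance of Tnfsf9 between libraries of a group was 0.460 times that expected from counting alone, so its spread was no larger than counting error.

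Tnfsf8 (CD30 ligand) had 19, 16 and 25 reads in Sham and 19, 22 and 22 in OVX. The groups overlapped, with 0.790 ± 0.221 CPM in Sham against 0.739 ± 0.0630 in OVX (mean ± SD of 3 libraries), and the log2 fold change was -0.09 (95% interval -0.89 to 0.70). This estimate was 0.11 without Sham replicate 3. Tnfsf4 (OX40 ligand) was read 4, 12 and 10 times in Sham and 7, 1 and 2 times in OVX and was too rare to be tested across genes. Its values overlapped, since OVX replicate 1 lay above Sham replicate 1 (exact permutation test of log2 levels, two-sided, p = 0.2).

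Tnfsf14 (LIGHT), which binds the lymphotoxin-β receptor and HVEM, varied more. It had 2.32, 2.68 and 6.08 CPM in the Sham libraries and 3.75, 1.20 and 1.97 CPM in OVX. Sham replicate 3 and OVX replicate 1 were the highest, and the groups overlapped. Its estimate on the log2 scale was -0.68 (standard error 0.52, 95% interval -1.90 to 0.53), and -0.13 without Sham replicate 3. The summed neutrophil genes had their largest shares in the same pair of libraries, and S100a9, an abundant neutrophil transcript, had 15801, 25523 and 61850 reads in Sham and 26902, 8334 and 10283 in OVX. All 18 neutrophil genes had estimates below 0, with a median log2 fold change of -1.27, although 0 of them had an unadjusted p-value under 0.05 in edgeR's quasi-likelihood test or passed after adjustment. With the neutrophil share as a covariate, the log2 fold change of Tnfsf14 was 0.28. It was -0.84 with the monocyte and macrophage share and -0.70 with the mature B share. In these covariate fits, a difference between the groups in the ligand and one in the marker share cannot be told apart.

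Tnfsf10 encodes TRAIL, which can start apoptosis through death receptors. It was read between 388 and 715 times per library, and its level was 20.7, 21.0 and 18.2 CPM in the Sham libraries and 15.8, 18.1 and 21.6 CPM in OVX. The lowest and the highest value were both in OVX libraries (replicates 1 and 3). The log2 fold change of -0.11 had the narrowest interval of the 9 tested ligands, from -0.44 to 0.23 (standard error 0.14, adjusted p = 0.857 in edgeR's quasi-likelihood test).

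Tnfsf12 encodes TWEAK, a ligand with a part in tissue repair and inflammation. Its level was 1.10, 1.55 and 0.684 CPM in Sham and 0.692, 0.353 and 1.30 CPM in OVX. Sham replicate 2 and OVX replicate 3 were highest, as for the summed share of the monocyte and macrophage genes. With the share of those genes as a covariate its log2 fold change was -0.12 (standard error 0.40), while it was -0.84 with the neutrophil share and -0.29 with the mature B share. A log2 fold change of -0.49 was estimated (95% interval -1.73 to 0.74), which ran from -1.10 without OVX replicate 3 to -0.15 without OVX replicate 2. Tnfsf12 overlaps the read-through gene Tnfsfm13 and the antisense gene Tnfsf13os, and whether strand was used in counting is not given in the sources used here, so its counts are uncertain.

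**Figure D2:**
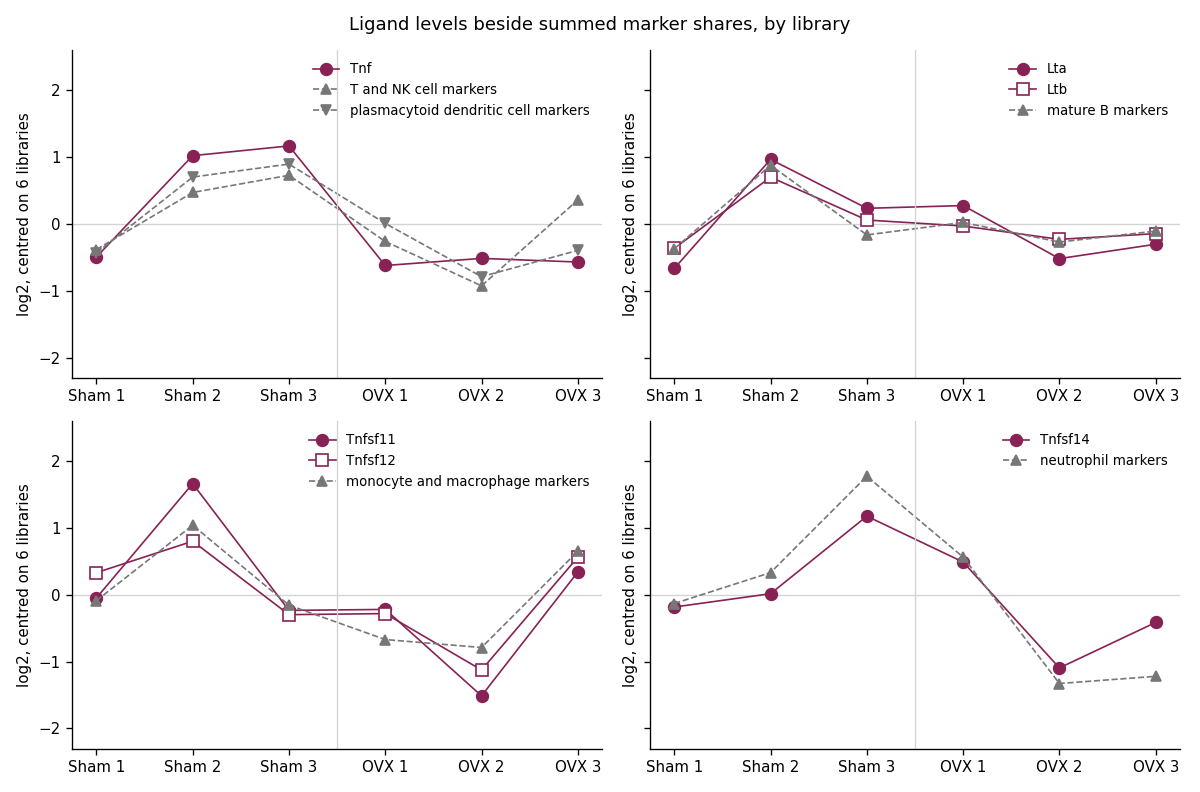
Log2 level of 6 ligand genes (purple) and log2 summed share of marker genes of other cells or of mature B cells (grey, dashed), each centred on its mean over the 6 libraries (vertical axis), in each Sham and OVX library (horizontal axis). Tnf is high in Sham replicates 2 and 3, Lta and Ltb in Sham replicate 2, Tnfsf11 and Tnfsf12 in Sham replicate 2 and OVX replicate 3, and Tnfsf14 in Sham replicate 3 and OVX replicate 1. Not every marker list is drawn, and the plasma cell and erythroid lists, not drawn, were also largest in Sham replicate 2.

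All 10 ligands had their highest level in 1 of 3 libraries. Sham replicate 2 had the highest level of 5 of the 10 ligands (Lta, Ltb, Tnfsf11, Tnfsf4 and Tnfsf12), Sham replicate 3 of 3 (Tnf, Tnfsf8 and Tnfsf14) and OVX replicate 3 of the other two. OVX replicate 2 had the lowest level of 4 and Sham replicate 1 of 3. For 8 of the 10 genes the variance within groups exceeded 1.5 times the counting variance, the exceptions being Tnfsf9 and Tnfsf8, and for 7 of the 10 the SD was larger in Sham than in OVX. The largest excess was that of Ltb, whose variance was 371 times the counting variance, so counting error was a small part of its spread. This ratio grows with the number of reads and does not rank the ligands by variability. Over the 6 libraries, the root mean square of centred log2 levels was 0.342 for Ltb, below 0.558 for Lta, 0.778 for Tnf and 0.938 for Tnfsf11.

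**Figure D3:**
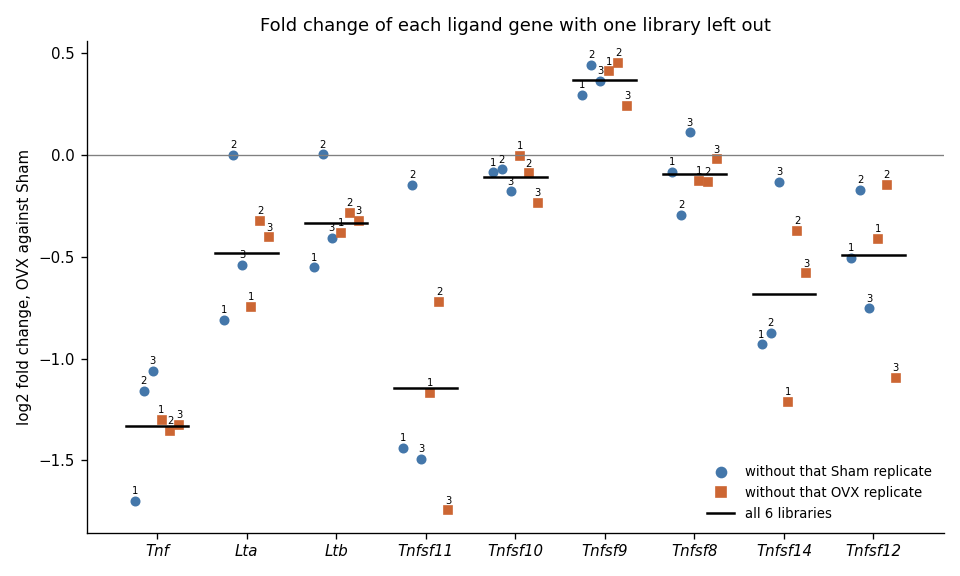
Log2 fold change of OVX against Sham (vertical axis) of the 9 tested ligand genes with all 6 libraries (black line) and with each library left out (circles for Sham, squares for OVX, with the replicate number). Tnf stays between -1.70 and -1.06, while Ltb, Lta and Tnfsf11 move to 0.0017, -0.0016 and -0.15 without Sham replicate 2.

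Of the 13 listed receptors of these ligands, 11 were tested. None was called and 0 had an unadjusted p-value under 0.05 in edgeR's quasi-likelihood test. The estimate was below 0 for 9 and above 0 for 2. Over the 11, the median was -0.30 on the log2 scale, and values ran from -1.07 to 0.25. Ltbr, the receptor of the lymphotoxin heterotrimer and of LIGHT, stood lowest by p-value among the receptors. Its level was 4.39, 9.09 and 10.4 CPM in the Sham libraries and 4.77, 1.76 and 4.87 CPM in OVX, so that Sham replicate 1 lay among the OVX libraries. The log2 fold change was -1.07 (standard error 0.46, 95% interval -2.14 to 0.0019, unadjusted p = 0.0503 and adjusted p = 0.811 in edgeR's quasi-likelihood test), and -0.51 with the neutrophil share as a covariate. It was -0.90 with the monocyte and macrophage share and -0.93 with the mature B share.

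The receptors of TNF had narrower intervals. Tnfrsf1a, the death domain receptor TNFR1, had 22.7 ± 7.73 CPM in Sham against 14.8 ± 5.59 in OVX (mean ± SD of 3 libraries), a log2 fold change of -0.61 (standard error 0.35). Tnfrsf1b (TNFR2) had 46.0 ± 11.2 CPM in Sham against 38.8 ± 6.17 in OVX, a log2 fold change of -0.25 (standard error 0.20). Both overlapped between the groups. Tnfrsf1a was -0.33 without OVX replicate 2 and -0.12 with the neutrophil share as a covariate, and Tnfrsf1b was -0.094 without Sham replicate 2 and -0.43 without Sham replicate 1. For Tnfrsf1a the value was -0.52 with the monocyte and macrophage share and -0.55 with the mature B share. Tnfrsf14 (HVEM, bound by LIGHT) also overlapped, with 28.1 ± 5.23 CPM in Sham against 24.2 ± 2.50 in OVX. For Tnfrsf4 (OX40) and Tnfrsf8 (CD30) the log2 fold changes were -0.30 (-0.034 without OVX replicate 2) and 0.01, and Tnfrsf9 (4-1BB) had from 3 to 10 reads per library and was not tested.

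Among the receptors of TRAIL, Tnfrsf10b, the mouse death receptor, was the 1 receptor gene of the 11 tested whose groups did not overlap. Of all genes tested, 4.12% had every OVX library below every Sham library and a further 4.33% had every OVX library above. The receptors were thus near the share over all genes. Tnfrsf10b was lower in OVX. It had 2.83, 2.92 and 2.90 CPM in Sham and 2.48, 2.51 and 2.06 CPM in OVX, with a log2 fold change of -0.30 (standard error 0.21, 95% interval -0.78 to 0.19; exact permutation p = 0.1). The decoy receptors Tnfrsf22 and Tnfrsf23 overlapped between the groups and had log2 fold changes of -0.45 and -0.49. That of Tnfrsf22 was -0.069 without Sham replicate 2. Tnfrsf12a (Fn14), the receptor of TWEAK, had 2.90 ± 0.468 CPM in Sham against 3.46 ± 0.219 in OVX, a log2 fold change of 0.25 (standard error 0.21).

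**Figure D4:**
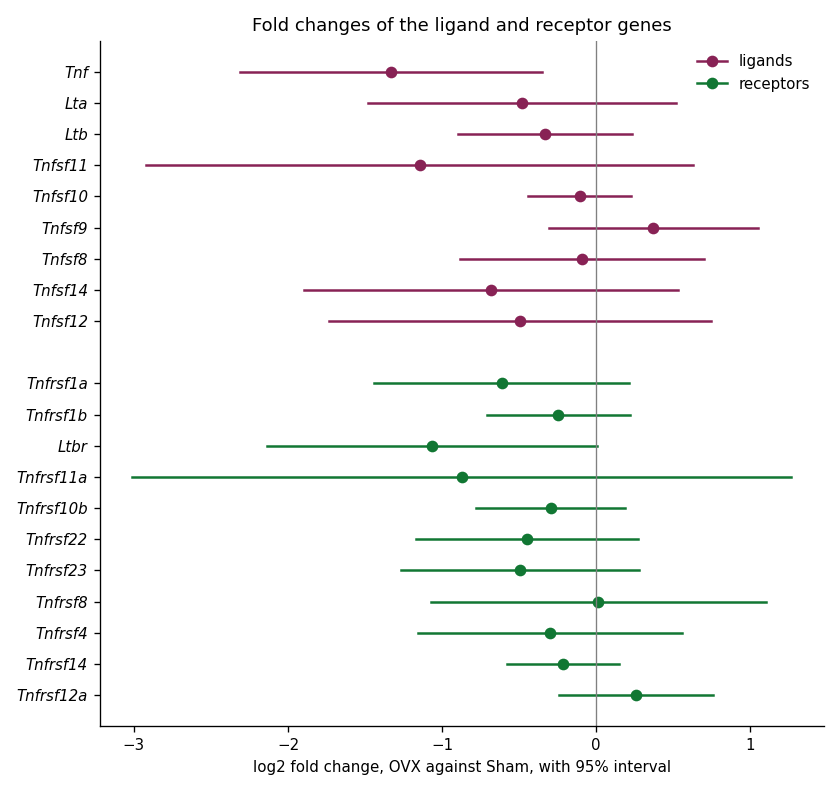
Log2 fold change of OVX against Sham (horizontal axis, point) with its 95% interval (line) for the 9 tested ligand genes (purple) and the 11 tested receptor genes (green). The interval of Tnf, from -2.31 to -0.35, lies below 0, that of Ltbr ends at 0.0019, and all others include 0.

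Ligands of the superfamily outside the 10 were mostly rare in these cells. Of 8 listed, 3 were tested, 2 with an estimate below 0 and 1 above, and none was called. Tnfsf13b encodes BAFF, a survival factor for B cells that is made mainly by other cells, and had 41, 56 and 152 reads in the Sham libraries and 57, 15 and 24 in OVX. As for Tnfsf14, its highest values were in Sham replicate 3 and OVX replicate 1, and its log2 fold change was -1.47 (standard error 0.70, unadjusted p = 0.0724 in edgeR's quasi-likelihood test). It ranged from -2.36 without OVX replicate 1 to -0.66 without Sham replicate 3 and was -0.16 with the neutrophil share as a covariate. Eda had a log2 fold change of 0.07. Cd70 had 0 reads in all libraries, and Tnfsf15, Tnfsf18, Fasl and Cd40lg had at most 27 reads in a library and were not tested.

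A list of genes that release the ligands or act on their mRNA had 9 members. All were tested, with 6 estimates above and 3 below 0 and a median log2 fold change of 0.09. Rc3h2 (Roquin-2), which promotes decay of Tnf mRNA, had the lowest p-value of those above 0, with 62.0 ± 2.30 CPM in Sham against 68.0 ± 1.25 in OVX (mean ± SD of 3 libraries). All its OVX values were above all its Sham values, as for 662 of the 15305 genes tested (4.33%; exact permutation p = 0.1). A link to the level of Tnf was not tested. Its log2 fold change was 0.13 (standard error 0.062, unadjusted p = 0.0662 in edgeR's quasi-likelihood test). Zc3h12a (Regnase-1), an RNase that degrades inflammatory transcripts, had the lowest p-value below 0, with a log2 fold change of -0.13 (standard error 0.13).

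All 18 listed NF-kB components and targets were tested, with 12 estimates above 0, 6 below and a median log2 fold change of 0.04. Nfkbia, which encodes the inhibitor IkBα and is itself induced by NF-kB, was the 1 gene of the 18 with an unadjusted p-value under 0.05 in edgeR's quasi-likelihood test (0.0438, or 0.811 when adjusted). It had 243, 204 and 220 CPM in the Sham libraries and 237, 279 and 264 CPM in OVX, a log2 fold change of 0.23 (standard error 0.093), and the groups overlapped since OVX replicate 1 lay below Sham replicate 1. Ikbkb, which encodes the kinase IKKβ, had the lowest p-value of those below 0 (log2 fold change -0.20, standard error 0.14), and was -0.046 without Sham replicate 2. Of 14 osteoclast-regulating cytokines, 5 had enough reads, with 3 estimates above and 2 below 0. Tgfb1 had the lowest p-value above 0 (log2 fold change 0.20, standard error 0.11) and Il1b below 0 (-0.62, standard error 0.73). Tgfb1 was 0.31 without Sham replicate 1 and 0.12 without Sham replicate 2, and Il1b was -1.92 without OVX replicate 1 and -0.18 without OVX replicate 3.

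The genes whose pattern over the 6 libraries was nearest to a ligand's were found by the root mean square (RMS) difference of log2 levels, each centred on its mean. It is a description over 6 points that share their libraries. Nearest to Tnf were Txk, a T cell kinase (RMS difference 0.202), Itgax, the dendritic and myeloid cell integrin CD11c (0.220) and Sowaha (0.245), where Tnf itself varied by an RMS of 0.778. Itgax had 2.03, 6.34 and 6.36 CPM in the Sham libraries and 2.73, 1.87 and 1.82 CPM in OVX, high in the same pair of Sham libraries as Tnf. For Ltb, whose own RMS was 0.342, near genes were Lpcat1 (0.0335) and Fchsd2 (0.0443). Those nearest to Lta were Kcnj1, Fgf2 and Noxred1, with RMS differences from 0.0777 to 0.0964. Tnfsf11 had less close neighbours in Adcy4, Pde8b and Nlrp1b (0.210 to 0.239), all highest in Sham replicate 2 and lowest in OVX replicate 2. With library size only or upper-quartile factors, 2 of the 3 genes remained for Tnf and all 3 for the other ligands.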

How the data were processed

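RNA of bead-enriched bone marrow B cells from 3 OVX and 3 Sham samples was analysed, with groups and replicate numbers from the labels. The authors deposited raw counts of reads for 54532 Ensembl genes, not normalized. The submitters' processing notes name mm10, CASAVA and Bowtie 0.12.2; the counting tool and annotation are not given in the sources used here. The labels name Trizol and an Illumina TruSeq kit, the study's methods RNA-Solv or RNeasy. Symbols were found for 54409 genes.

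Tests were run with edgeR 4.0.16 under R 4.3.3 (filterByExpr by group, TMM, quasi-likelihood test, Benjamini-Hochberg adjustment over 15305 genes, call at an adjusted p under 0.05). A standard error is the size of the log2 fold change divided by the square root of F, and 95% intervals use the fit's degrees of freedom. Log2 levels for exact permutation tests and likeness used a prior count of 2. DESeq2 1.42.0 and limma 3.58.1 (voom) were alternatives, with other scalings, filters, covariates and left-out libraries. The script was tested on simulated data. The members and lists were chosen with earlier results of these data known. Named are all 10 ligands, all 13 receptors, the lowest p in each direction of every other list, and the 3 genes nearest in pattern to Tnf, Lta, Ltb and Tnfsf11. Items that this rule names but the text leaves out are not reported here. Other genes named, and the ratios to Ltb, were chosen after their values were seen.

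Every pair of libraries differed by more than sampling noise (chi-square per gene from 9.29 to 74.5), so none was a copy of another and each was counted as a sample. That does not show that they came from separate animals. Replicate numbers were not used to pair the libraries in the main fit. Deviations of same-numbered libraries correlated at -0.41, -0.19 and -0.28, which cannot show whether such libraries shared a batch. Reads carry no molecular identifiers, so the limits given for 0 reads cover counting error only. Positions and promoters are from RefSeq (GRCm38.p6). ChIP-seq samples were not analysed here.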

Additional observations from a re-analysis of the deposited data

How the results depend on the processing

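None of the named genes passed the threshold under any alternative run, and the number of called genes was 0 in all of them except where the rule was an unadjusted p-value under 0.05, which gave 574 genes and 1 ligand (Tnf). The lowest adjusted p-value over all alternatives was 0.273, without Sham replicate 1. Without that library 2698 genes had an unadjusted p-value under 0.05, Tnf and Ltb among them, and in the other leave-one-out fits between 233 (without OVX replicate 2) and 988 (without OVX replicate 1) did. No filter on low counts gave 1269 such genes and the neutrophil covariate 153. The split of these genes into higher and lower, 225 and 349, was 64 and 441 with factors from the B cell markers and 204 and 551 with DESeq2, which was run without the filter on low counts. The median log2 fold change of the ligands stayed below 0 in all 18 alternatives (the mature B covariate, added after the data were seen, among them), from -0.55 without Sham replicate 1 to -0.15 without Sham replicate 2, and was -0.26 with the neutrophil covariate and -0.21 with the monocyte and macrophage covariate. With a replicate block it was -0.39, with 206 genes at an unadjusted p-value under 0.05 and 0 called genes. The labels do not say whether the replicate numbers mark a shared batch. The unadjusted p-value of Tnf in edgeR's quasi-likelihood test was 0.0285 with the block and 0.0517 without Sham replicate 3.

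Of 162 values of ligands under alternatives, 4 changed sign, and of 342 values of other named genes 14 did; the cause was not tested. With the neutrophil covariate, log2 fold changes were 0.12 for Tnfsf8, 0.28 for Tnfsf14, 0.11 for Tnfrsf4, 0.035 for Tnfrsf14, -0.098 for Tnfrsf8, -0.026 for Eda and 0.37 for Il1b. Leaving out a library moved Ltb between -0.55 and 0.0017, Tnfsf8 between -0.30 and 0.11, Tnfrsf11a between -2.04 and 0.052, Tnfrsf8 between -0.36 and 0.26, Eda between -0.051 and 0.31 and Zc3h12a between -0.24 and 0.026. Tnfrsf8 was also -0.0056 with library size only and -0.019 with factors from the B cell markers.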
